A study of Mus musculus with 9 samples.

Results

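The machinery that writes, copies and removes DNA methylation was followed through its transcripts in mouse embryonic fibroblasts (MEFs) that lack a pair of histone H3 lysine 9 (H3K9) methyltransferases. It was taken as 9 genes chosen by name: Dnmt1, Dnmt3a and Dnmt3b (DNA methyltransferases), Uhrf1 and Uhrf2 (ring finger proteins that bind DNA at methylated sites), Hells (a chromatin remodeller), and Tet1, Tet2 and Tet3 (5-methylcytosine oxidases). All 9 were found by symbol among the 47937 genes of the count table, and all 9 were among the 15540 genes that passed a filter on low counts and were tested. RNA levels were measured, and DNA methylation itself was not.

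The 9 libraries came from 3 genotypes with 3 libraries each. WT cells are the parental MEF clone, which carries a conditional Eset1 allele and was selected for Cre activity. S1S2 cells carry disrupted Suv39h1 and Suv39h2, and G9Gl cells carry disrupted G9a and Glp (gene symbols Ehmt2 and Ehmt1). Both mutants were derived from the WT clone with CRISPR/Cas9, share its conditional allele, and are each represented by 1 clone (B1 for S1S2, H7 for G9Gl), so genotype and clone cannot be told apart. According to the methods, a tamoxifen-inducible Cre with a puromycin resistance gene was put back after gene disruption. The lines were then kept under constant puromycin selection. Whether the WT clone received this construct and drug is not stated, so they cannot be told apart from genotype either. The labels name no tamoxifen treatment. The methods call the replicates of a cell line biological, the labels name no separate derivations, and p-values therefore measure the spread between cultures of a clone.

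As background, methylation of cytosine in CpG pairs is copied after replication by Dnmt1, which Uhrf1 brings to DNA that carries the mark on the old strand alone. Uhrf1 also binds H3K9-methylated histone tails, which is a known contact between both marks. Dnmt3a and Dnmt3b set methylation at sites that lacked it, Hells helps methylation of repeats in compact chromatin, and Tet enzymes oxidize 5-methylcytosine to 5-hydroxymethylcytosine and further products that can be replaced by unmethylated cytosine.

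The start regions of these genes are shown because Dnmt1, Uhrf1 and Hells held a sequence word that the other 6 genes did not. RefSeq start windows (GRCm38.p6, 250 bases before and 50 bases after each listed start, 300 in all) were found for all 9 genes, with several windows for Dnmt1, Dnmt3a and Uhrf1. The windows were searched on both strands for the E2F words TTTCCCGC, TTTCGCGC, TTTGCCGC and TTTGGCGC, words of the factors that drive genes of S phase, and at least 1 of these words stood in 2.27% of 32851 windows of all genes. Of the 9 genes, Dnmt1 (2 words in 1 of 3 windows), Uhrf1 (1 word in 1 of 2 windows) and Hells (1 word) held one. Each of the words holds a CpG pair. The windows with a word had 33 CpG pairs for Dnmt1, 33 for Uhrf1 and 34 for Hells, against a median of 7 over all windows. The share over all windows was not matched for CpG content. The stretches of 30 bases around a word in each are given 5′ to 3′ on the strand of the gene, with the word in capitals, and on the Dnmt1 stretch the word reads on the opposite strand.
Dnmt1, chr9:20952824-20952853, minus strand, word at -219 from the start: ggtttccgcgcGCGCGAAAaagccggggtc
Uhrf1, chr17:56304117-56304146, plus strand, word at -185 from the start: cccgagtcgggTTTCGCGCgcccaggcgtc
Hells, chr19:38930917-38930946, plus strand, word at -62 from the start: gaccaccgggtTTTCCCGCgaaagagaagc
A match describes the letters in the window and is no evidence of binding. The words CCAAT and GGGCGG, each on either strand, were found in 37.4% and 35.7% of all windows. Each of the 9 genes held GGGCGG in at least 1 window, and Dnmt3a, Dnmt3b, Uhrf2, Hells, Tet1 and Tet2 held no CCAAT.

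The Tet genes are shown with their CpG pairs in capitals. As given below, Tet1 changed in both mutants, Tet3 in S1S2 alone and Tet2 in neither. A link between CpG content and these changes was not tested. Each run holds the 76 bases directly before the RefSeq start, a length that avoids exons of any transcript in GENCODE M21.
Tet1, chr10:62887325-62887400, minus strand: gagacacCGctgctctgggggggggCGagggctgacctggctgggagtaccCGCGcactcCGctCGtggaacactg
Tet2, chr3:133544391-133544466, minus strand: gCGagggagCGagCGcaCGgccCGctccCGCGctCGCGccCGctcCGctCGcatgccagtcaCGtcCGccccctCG
Tet3, chr6:83441679-83441754, minus strand: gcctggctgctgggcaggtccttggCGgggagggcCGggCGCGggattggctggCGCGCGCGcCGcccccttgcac
Tet1 had 6 CpG pairs in its run, Tet3 had 9 and Tet2 had 15. Over the 300-base windows the counts were 17 for Tet1, 22 for Tet3 and 57 for Tet2, against a median of 7 and an upper quartile of 20 over all windows. In GENCODE M21 each of these genes reaches further upstream than its window (to position 62908996 for Tet1, 133545139 for Tet2 and 83459084 for Tet3), so each run describes 1 start region and may not be the only one.

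Libraries held from 21319778 to 32157623 gene counts, and levels are given as CPM, the counts of a gene relative to the size of its library, scaled with the TMM factors of edgeR. The smallest count behind any value of the 9 genes was 133, for Dnmt3b in a G9Gl library. The targeted transcripts of Suv39h1 in S1S2 and of Ehmt1 and Ehmt2 in G9Gl were lower than in WT, whereas Suv39h2 RNA was higher in S1S2, by 0.70 ± 0.039 on the log2 scale (± SE). Of 10 fibroblast markers, 7 fell and 1 rose in each mutant (80%, beside 37.9% of all genes changed in S1S2 and 35% in G9Gl), and their summed level was 9921 to 11415 CPM in WT, 7405 to 7469 CPM in S1S2 and 7837 to 8687 CPM in G9Gl. Single markers moved further than this sum: in S1S2 6 of the 10 fell by a fold change of at least 2, among them Col3a1 (8.04-fold lower), Col1a2 (6.06-fold lower) and Prrx1 (5.43-fold lower), and Thy1 was 2.45-fold lower in S1S2 and 7.68-fold higher in G9Gl. Markers of other cell types were low but differed between genotypes. The 6 epithelial markers summed to 0.297 to 0.580 CPM in WT, 5.07 to 5.65 CPM in S1S2 and 0.359 to 0.667 CPM in G9Gl, with Krt8 at 0.139 ± 0.0490 CPM in WT and 4.68 ± 0.512 CPM in S1S2 (SD, n = 3, edgeR adjusted p = 1.91e-10) and Cdh1 and Krt5 at or under 3 counts in each library. The 4 endothelial markers summed to 0.123 to 0.193 CPM in WT, 1.55 to 1.70 CPM in S1S2 and 0.790 to 2.35 CPM in G9Gl, with Kdr at 1.22 ± 0.180 CPM in S1S2 (edgeR adjusted p = 8.65e-07) and Cdh5 at 1.01 ± 0.503 CPM in G9Gl (adjusted p = 4.26e-06), each at or under 3 counts in every WT library. The 8 pluripotency markers summed to at most 1.02 CPM in any library, with Pou5f1 and Sox2 at or under 3 counts in all 9. Nanog had 13, 12 and 13 reads in WT, 4, 8 and 0 in S1S2, and 14, 15 and 18 in G9Gl. Its edgeR adjusted p against WT was 0.0647 in S1S2 and 0.434 in G9Gl. Lin28a had 11, 1 and 1 reads in G9Gl. The 5 haematopoietic markers summed to 3.21 to 4.64 CPM, with Cd3e and Adgre1 at or under 3 counts in all 9. Cd68 made up most of this sum, at 4.36 CPM in WT, 3.53 CPM in S1S2 and 4.40 CPM in G9Gl. The part of these marker shifts in the values below was not tested, and fewer cells of a type cannot be told apart from less RNA per cell.

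**Figure D1:**
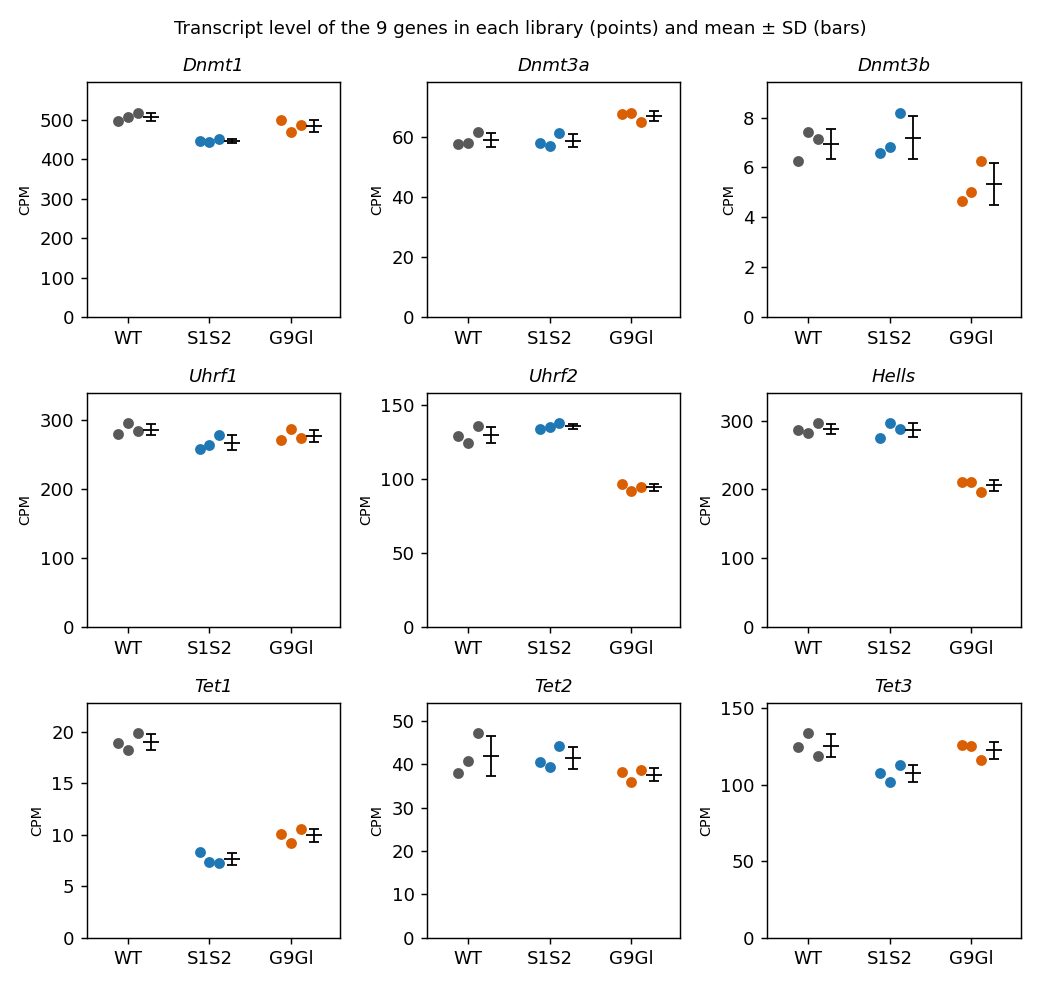
Levels of the 9 genes as CPM (linear axis from 0) in each of the 3 libraries of WT, S1S2 and G9Gl (points), with the mean ± SD beside them (bars). Tet1 lay between 18.3 and 19.9 CPM in WT and at or under 10.54 CPM in all 6 mutant libraries, while Hells and Uhrf2 were lowest in G9Gl.

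Dnmt1 and Uhrf1 had the highest levels in WT cells. On the per-length scale (CPM per kb of all exons of the gene), Dnmt1 stood at 68.7 ± 1.40 (SD, n = 3) and Uhrf1 at 67.3 ± 1.89, and the libraries of this pair overlapped. Hells followed at 40.0 ± 1.02, Uhrf2 at 15.1 ± 0.649 and Tet3 at 7.53 ± 0.449, each without overlap with its neighbours in the order. Dnmt3a stood at 3.55 ± 0.137 and Tet2 at 2.49 ± 0.276. Dnmt3b (1.36 ± 0.116) and Tet1 (1.23 ± 0.0521) closed the order, with overlapping libraries. The order was kept in both mutants except that Uhrf1 and Dnmt1, which overlapped, changed places in S1S2, and that Tet1 was below Dnmt3b without overlap in both (0.496 ± 0.0394 in S1S2 and 0.643 ± 0.0428 in G9Gl).

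A gene is said to have changed, risen or fallen where the quasi-likelihood F test of edgeR gave an adjusted p no higher than 0.01 (Benjamini-Hochberg method over all 15540 genes). In S1S2 against WT, 3 of the 9 genes changed, all lower (Dnmt1, Tet1 and Tet3), beside 37.9% of all genes tested (20.3% higher and 17.6% lower). In G9Gl against WT, 4 changed (Dnmt3a higher, and Uhrf2, Hells and Tet1 lower), beside 35% of all genes (19% higher and 16% lower). A fold change of at least 2 was reached by Tet1 in S1S2 alone, so that 1 of 9 passed both limits there and 0 of 9 in G9Gl, beside 9% and 10.2% of all genes. No other difference of the 9 genes from WT reached a fold change of 2 at any p, in edgeR or in DESeq2. Between the mutants 5 of 9 changed (Dnmt3a, Tet1 and Tet3 higher in G9Gl, Uhrf2 and Hells lower), beside 42.6% of all genes (21.6% higher and 21.1% lower), and none reached a fold change of 2, beside 13.1%. The median log2 fold change of the 9 genes was -0.02 in S1S2 and -0.16 in G9Gl, against a median of 0.00 in S1S2 and -0.01 in G9Gl over all genes. The count between the mutants was sensitive to single libraries: it was 2 without S1S2 replicate 2, and 3 without S1S2 replicate 1, G9Gl replicate 1 or G9Gl replicate 2. With the median shift of each chromosome entered in the fit the count was 3 (Dnmt3a, Dnmt3b and Tet3), without Tet1, Uhrf2 and Hells.

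**Figure D2:**
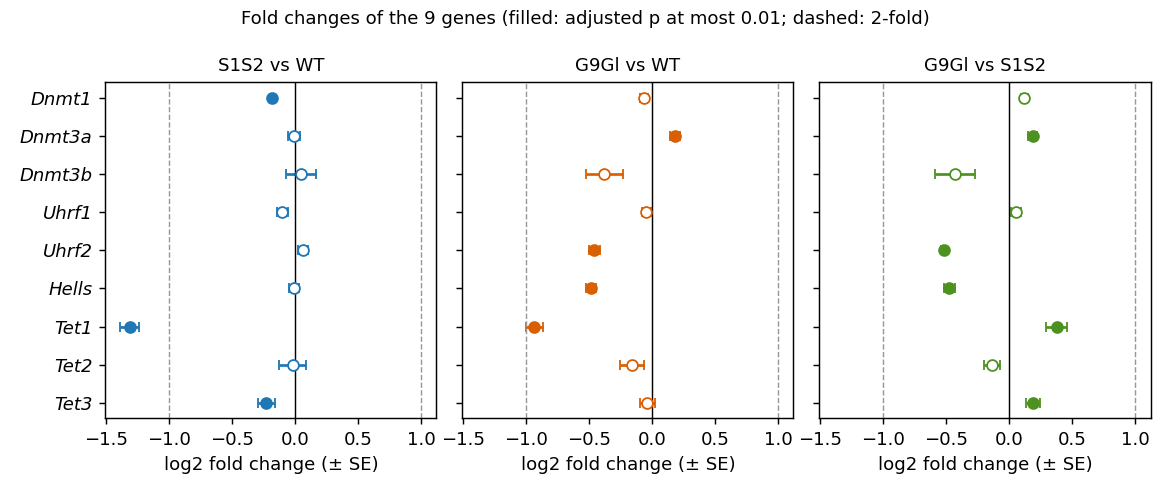
Log2 fold changes (± SE from the spread of log2 CPM between libraries) of the 9 genes in S1S2 vs WT, G9Gl vs WT and G9Gl vs S1S2, with filled symbols for an adjusted p of at most 0.01 and dashed lines at a 2-fold change. Tet1 lies farthest from 0 against WT in both mutants (-1.31 and -0.93), and Uhrf2 and Hells lie near 0 in S1S2 and near -0.5 in G9Gl.

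Dnmt1, the maintenance methyltransferase, had the highest CPM of the 9 genes, not corrected for length, with 497, 506 and 517 CPM in WT, 446, 443 and 452 CPM in S1S2, and 499, 468 and 487 CPM in G9Gl. All S1S2 libraries lay below all WT libraries, whereas G9Gl and WT overlapped. Dnmt1 fell by 0.18 ± 0.019 on the log2 scale in S1S2 (± SE, edgeR adjusted p = 0.000977), and its difference in G9Gl was -0.06 ± 0.032 (adjusted p = 0.204). With the median shift of each chromosome entered in the fit, an alternative chosen after seeing the data, the S1S2 difference was -0.11 with an adjusted p of 0.0243 and no longer passed.

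Uhrf1, which guides Dnmt1 to newly replicated DNA, stood at 280, 296 and 284 CPM in WT, at 259, 265 and 279 CPM in S1S2, and at 271, 287 and 275 CPM in G9Gl. All S1S2 libraries lay below the lowest WT library, the highest of them narrowly (279 against 280 CPM), and G9Gl overlapped WT. Neither difference passed the edgeR test, at -0.10 ± 0.040 in S1S2 (adjusted p = 0.0611) and, for G9Gl, at -0.05 ± 0.034 (adjusted p = 0.395). A share of 9.05% of the 75-base words of Uhrf1 transcripts also occurs in Gm5648, so reads may be split between them.

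Uhrf2, the paralogue of Uhrf1, gave 129, 125 and 136 CPM in WT, 134, 135 and 138 CPM in S1S2, and 96.8, 92.2 and 94.9 CPM in G9Gl. The G9Gl libraries were below all others, and S1S2 overlapped WT. Uhrf2 fell by 0.46 ± 0.041 on the log2 scale in G9Gl (edgeR adjusted p = 1.17e-07) and differed by 0.06 ± 0.038 in S1S2 (adjusted p = 0.253). G9Gl was also below S1S2, at -0.52 ± 0.024 (adjusted p = 1.87e-08), beside a median of -0.52 over all tested genes of chromosome 19, where Uhrf2 lies.

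Hells was also lowest in G9Gl, with 287, 282 and 296 CPM in WT, 275, 296 and 288 CPM in S1S2, and 211, 210 and 197 CPM in G9Gl. WT and S1S2 libraries were interleaved and the G9Gl libraries lay apart below them. Hells fell by 0.48 ± 0.039 in G9Gl (edgeR adjusted p = 5.04e-08) and differed by -0.01 ± 0.037 in S1S2 (adjusted p = 0.868). The difference between the mutants was -0.47 ± 0.044 (adjusted p = 5.24e-08), and Hells lies on chromosome 19 as well.

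Of the de novo enzymes, Dnmt3a had 57.5, 58.0 and 61.7 CPM in WT, 57.9, 57.1 and 61.3 CPM in S1S2, and 67.6, 68.0 and 65.0 CPM in G9Gl. The 3 G9Gl libraries were above all others. Dnmt3a rose by 0.18 ± 0.038 in G9Gl (edgeR adjusted p = 0.00569) and differed by -0.01 ± 0.045 in S1S2 (adjusted p = 0.916). The rise was close to the limit: the adjusted p was 0.0209 without G9Gl replicate 1, 0.023 without G9Gl replicate 2, 0.036 without WT replicate 1 and 0.0188 without WT replicate 2. It also missed the limit without composition factors (0.0256), with the 6 compared libraries alone (0.0108) and with chromosome shifts in the fit (0.0129). Exons of Dnmt3a overlap the antisense gene Dnmt3aos, and use of strand in counting was not stated.

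Dnmt3b had much lower values, with 6.28, 7.40 and 7.15 CPM in WT, 6.57, 6.82 and 8.18 CPM in S1S2, and 4.67, 5.03 and 6.27 CPM in G9Gl. All G9Gl libraries lay below all WT libraries, the highest of them narrowly (6.27 against 6.28 CPM), and S1S2 overlapped WT. The difference in G9Gl was -0.38 ± 0.145 (edgeR adjusted p = 0.0233), and that in S1S2 was 0.05 ± 0.121 (adjusted p = 0.788). The G9Gl difference depended on single libraries, from -0.29 without G9Gl replicate 1 (adjusted p = 0.103) to -0.52 without G9Gl replicate 3 (adjusted p = 0.00659). It also passed without the filter on low counts (adjusted p = 0.0081) and with a replicate block (adjusted p = 0.00918). Counting error alone was up to 8.67% for a Dnmt3b library, and 6.17% of its 75-base words occur in Dnmt3c.

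Tet1, an oxidase known for its high level in pluripotent cells, was the gene of the set that changed in both mutants. Its level was 18.9, 18.3 and 19.9 CPM in WT, 8.37, 7.40 and 7.24 CPM in S1S2, and 10.04, 9.23 and 10.54 CPM in G9Gl. The 3 genotypes did not overlap, with S1S2 lowest. Tet1 fell by 1.31 ± 0.073 on the log2 scale in S1S2 (edgeR adjusted p = 1.67e-09) and by 0.93 ± 0.066 in G9Gl (adjusted p = 5.12e-08). These values stayed between -1.37 and -1.27 in S1S2 and between -0.98 and -0.88 in G9Gl when any single library was left out. The mutants share the WT libraries, so both falls rest on the same 3 control values. Tet1 was higher in G9Gl than in S1S2 by 0.38 ± 0.085 (adjusted p = 0.00254), a difference that missed the limit without G9Gl replicate 3 (0.0141), S1S2 replicate 2 (0.0144) or S1S2 replicate 3 (0.0127). This difference was smaller and also missed the limit with chromosome shifts in the fit.

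Tet2 differed in neither mutant by more than the test allowed. It gave 38.1, 40.7 and 47.1 CPM in WT, 40.6, 39.4 and 44.3 CPM in S1S2, and 38.3, 35.9 and 38.7 CPM in G9Gl. The libraries of all genotypes overlapped those of WT, and the differences were -0.02 ± 0.104 in S1S2 (edgeR adjusted p = 0.841) and, for G9Gl, -0.16 ± 0.096 (adjusted p = 0.0831). The latter was -0.06 without WT replicate 3, the highest of the 9 libraries (adjusted p = 0.435), and -0.22 without WT replicate 1 (adjusted p = 0.0249). Exons of Tet2 overlap the antisense gene Gm42567.

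Tet3, the most abundant oxidase transcript here, had 125, 134 and 119 CPM in WT, 108, 102 and 113 CPM in S1S2, and 126, 126 and 116 CPM in G9Gl. All S1S2 libraries were below all WT libraries, and G9Gl overlapped WT. Tet3 fell by 0.23 ± 0.066 in S1S2 (edgeR adjusted p = 0.00183) and differed by -0.04 ± 0.062 in G9Gl (adjusted p = 0.601). The fall in S1S2 missed the limit without S1S2 replicate 2 (adjusted p = 0.0167).

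Libraries did not overlap between S1S2 and WT for 4 of 9 genes, beside 56% of all genes tested. They did not overlap between G9Gl and WT for 5 of 9, beside 52.8%, nor between the mutants for 8 of 9, beside 60.8%.

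Shares of each enzyme class were computed per length. Tet1 made up 11.0% ± 0.681 (SD, n = 3) of the summed Tet transcripts in WT, 5.30% ± 0.5 in S1S2 and 6.30% ± 0.531 in G9Gl. Tet3 made up 66.9% ± 2.91, 68.6% ± 0.153 and 71.9% ± 1.66 in the same order. Dnmt1 made up 93.3% ± 0.153 of the Dnmt transcripts in WT, 92.5% ± 0.321 in S1S2 and 92.8% ± 0.252 in G9Gl. Uhrf2 made up 18.4% ± 0.971 of the Uhrf pair in WT, 20.1% ± 0.361 in S1S2 and 14.5% ± 0.709 in G9Gl. Shares and their differences between genotypes depend on the gene length used. For Uhrf2 all exons span 8590 bases and the longest transcript 3536, against 4259 and 3586 for Uhrf1.

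Ratios within a library do not depend on its scaling. The Tet1 to Tet2 ratio per length was 0.542, 0.489 and 0.460 in WT, 0.225, 0.205 and 0.178 in S1S2, and 0.286, 0.280 and 0.297 in G9Gl, without overlap between genotypes. The Uhrf1 to Uhrf2 ratio was 4.37, 4.78 and 4.22 in WT, 3.89, 3.95 and 4.09 in S1S2, and 5.64, 6.28 and 5.85 in G9Gl, again without overlap. The Dnmt3b to Dnmt3a ratio was 0.356, 0.416 and 0.378 in WT and 0.225, 0.241 and 0.314 in G9Gl, whereas S1S2 (0.370, 0.389 and 0.435) overlapped WT. In a two-sided exact permutation test over libraries, 3 against 3 cannot go below p = 0.1. That smallest value of the exact test was reached in 9 of the 12 ratio comparisons, with p = 0.133 after Benjamini-Hochberg adjustment over the 12. Ratio levels depend on the gene length used. Taking the longest transcript in place of all exons moved the mean log2 Tet1 to Tet2 ratio in WT from -1.01 to -1.78. Differences of log2 ratios between genotypes do not depend on the length used.

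Uhrf2 and Hells both lie on chromosome 19, whose genes were shifted as a whole. Over 487 tested genes of chromosome 19 the median log2 fold change was 0.34 in S1S2 against WT, -0.17 in G9Gl against WT and -0.52 between the mutants, whereas over all genes it was 0.00, -0.01 and 0.00. The differences of Uhrf2 (-0.52) and Hells (-0.47) between the mutants were thus close to the median of their chromosome. With chromosome shifts entered in the fit, the difference between the mutants was -0.01 for Uhrf2 (edgeR adjusted p = 0.825) and 0.03 for Hells (adjusted p = 0.601). Relative to the chromosome median both genes were lower in both mutants, although 20.1% and 17.2% of chromosome 19 genes lay below Uhrf2 in S1S2 and G9Gl, and 16.6% and 16% below Hells: in the same fit Uhrf2 was -0.27 in S1S2 (adjusted p = 6.5e-05) and, for G9Gl, -0.29 (adjusted p = 4.02e-05), and Hells was -0.34 (adjusted p = 4.46e-06) and -0.31 (adjusted p = 1.19e-05). The direction of Uhrf2 in S1S2 therefore flipped with this setting, from 0.06 to -0.27. Copy number was not measured, and clone and genotype cannot be told apart for the shift of chromosome 19.

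**Figure D3:**
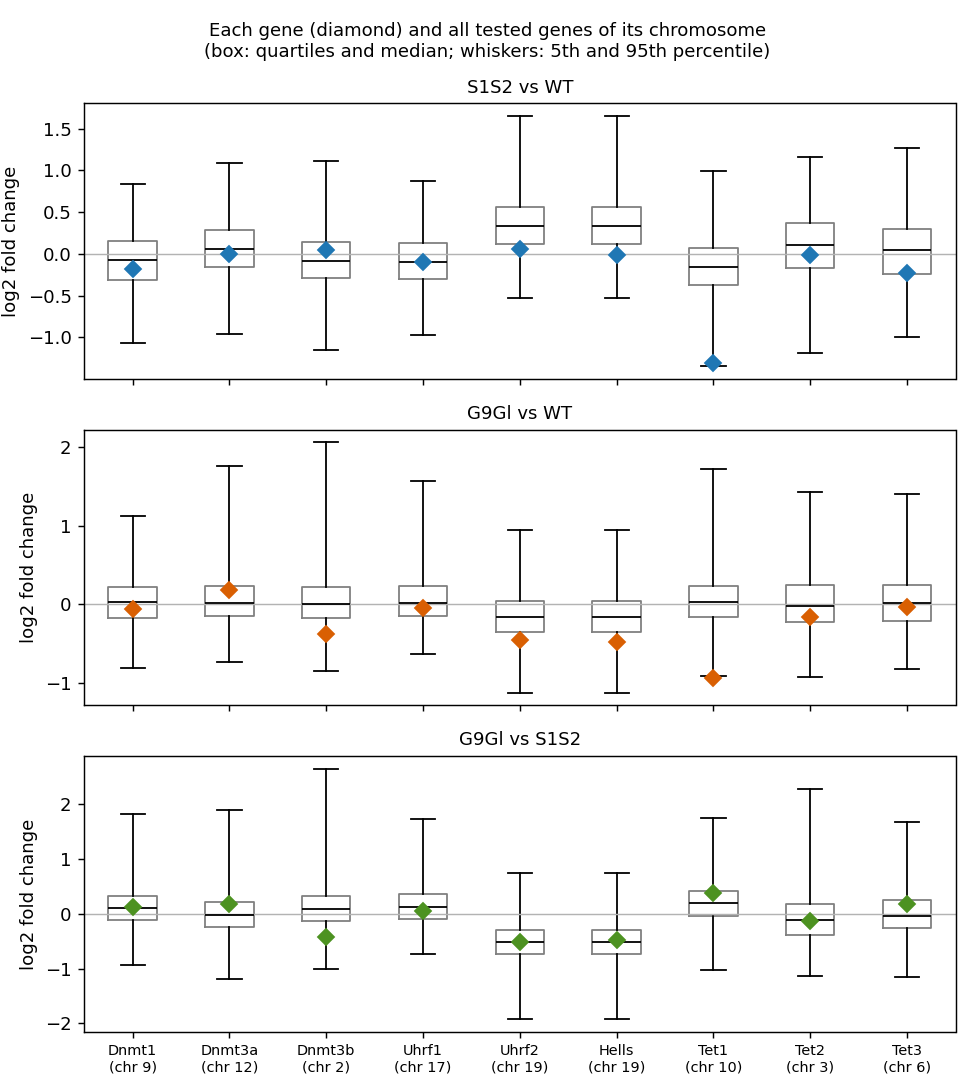
Log2 fold change of each of the 9 genes (diamonds) beside all tested genes of its chromosome (boxes give quartiles and median, whiskers the 5th and 95th percentiles) in S1S2 vs WT, G9Gl vs WT and G9Gl vs S1S2. Boxes of chromosome 19 (Uhrf2, Hells) are centred at 0.34, -0.17 and -0.52, and Tet1 lies near the lower whisker of chromosome 10 in both mutants against WT.

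The fall of Tet1 was larger than the shift of its chromosome. Chromosome 10 had medians of -0.15 in S1S2 and 0.04 in G9Gl over 691 genes, and 5.64% and 4.92% of these genes lay below Tet1. With chromosome shifts in the fit, Tet1 was -1.16 in S1S2 (edgeR adjusted p = 9.86e-09) and -0.96 in G9Gl (adjusted p = 3.9e-08), while its difference between the mutants was 0.19 (adjusted p = 0.0997). The other 6 genes lie on chromosomes with medians between -0.10 and 0.10 in S1S2 and between -0.02 and 0.03 in G9Gl.

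Closer to Tet1, its neighbours moved in the same direction in S1S2. Of the 5 tested genes on each side, all 10 had a value below 0 in S1S2 and 8 of them fell, beside 35.6% of chromosome 10 and 17.6% of all genes, with a median of -0.49 and a range from -1.48 to -0.07. They include Dna2 (a helicase and nuclease, -1.01 ± 0.059), Hnrnph3 (an RNA-binding protein, -0.65 ± 0.046) and Rufy2 (-0.52 ± 0.055). In G9Gl 3 of the 10 fell, Ddx50, Rufy2 and Hnrnph3, beside 13.9% of chromosome 10, with a median over the 10 of -0.21. The 10 neighbours of Uhrf2 had 7 genes that rose and none that fell in S1S2, and 2 that rose and 4 that fell in G9Gl. The 10 neighbours of Hells had 6 that rose and 1 that fell in S1S2, and 4 that rose and none that fell in G9Gl. Of all tested genes of chromosome 19, 57.3% rose and 4.52% fell in S1S2, and 11.7% rose and 36.6% fell in G9Gl. These neighbours were looked up by position and named after their values were seen.

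**Figure D4:**
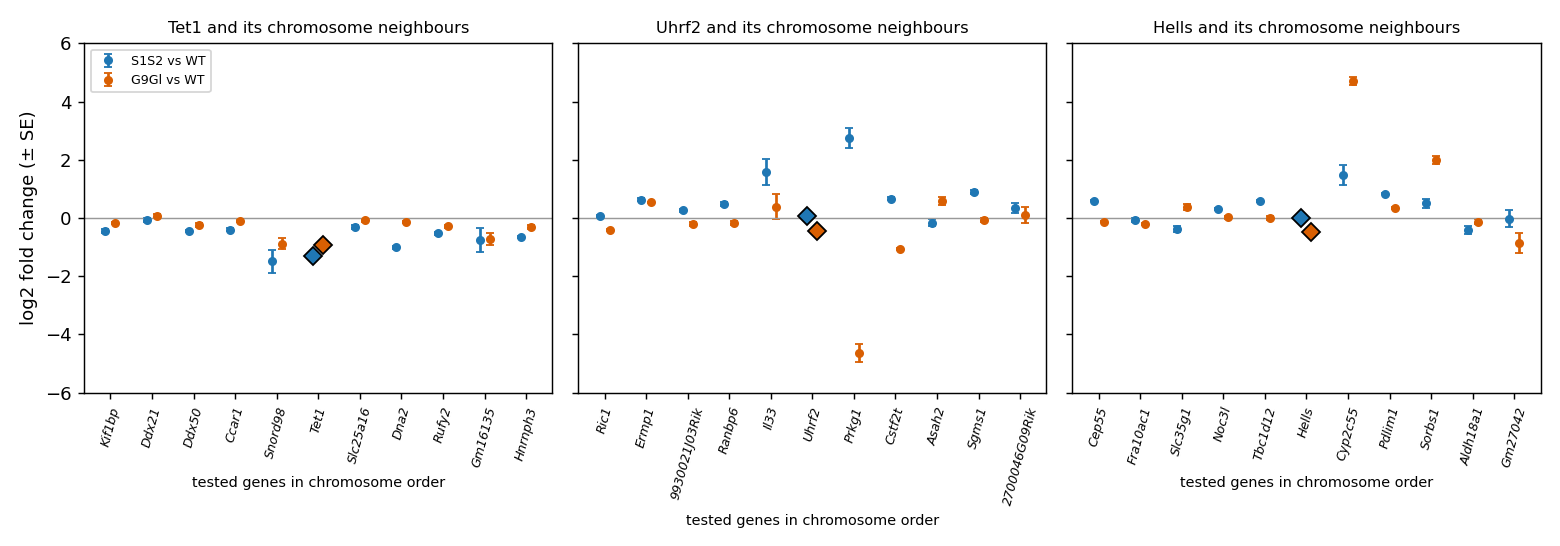
Log2 fold changes (± SE) against WT of Tet1, Uhrf2 and Hells (diamonds) and of the 5 tested genes on each side (points) in chromosome order, evenly spaced, in S1S2 (blue) and G9Gl (orange). All 10 neighbours of Tet1 lie below 0 in S1S2, and Tet1 itself is lower than all of them but Snord98 (-1.48).

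Of 12 genes for partners of the methylation enzymes, 10 were tested, and Dnmt3l and Dppa3, cofactors of germ cells and early embryos, were at or under the floor of 3 counts in all genotypes. In S1S2 5 fell (Cdca7, Zbtb24, Zfp57, Nsd1 and Setd2) and 1 rose (Usp7), 6 of 10 beside 37.9% of all genes, with a median of -0.15. In G9Gl Usp7 fell and the other 9 did not pass the test, 1 of 10 beside 35%, with a median of -0.03. Usp7, a deubiquitinase that binds Dnmt1 and Uhrf1, thus rose by 0.26 ± 0.031 in S1S2 (edgeR adjusted p = 3.33e-05) and fell by 0.33 ± 0.025 in G9Gl (adjusted p = 2.99e-06). Cdca7, which works with Hells, fell by 0.23 ± 0.027 in S1S2. The partners most abundant in WT passed the test in neither mutant, with Trim28 (a corepressor) at 0.01 ± 0.023 and -0.05 ± 0.031, and Pcna (the replication clamp) at -0.11 ± 0.071 and 0.00 ± 0.076, in S1S2 and G9Gl.

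Of 7 readers of methylated DNA, 2 changed in each mutant (28.6%, beside 37.9% and 35% of all genes), and 1 in G9Gl reached a fold change of 2, beside 10.2% of all genes. Zbtb38, a zinc finger protein that binds methylated DNA, stood at 56.8 ± 5.4 CPM in WT, 76.4 ± 2.58 CPM in S1S2 and 133 ± 4.65 CPM in G9Gl. It rose by 0.43 ± 0.082 in S1S2 (edgeR adjusted p = 1.26e-05) and by 1.23 ± 0.082 in G9Gl (adjusted p = 1.16e-11). Zbtb33 (Kaiso) rose in S1S2 by 0.21 ± 0.043, and Mbd4, a glycosylase of mismatched thymine, fell by 0.30 ± 0.064 in G9Gl. Mbd1, Mbd2, Mbd3 and Zbtb4 passed the test in neither mutant. Medians over the 7 readers were 0.03 in S1S2 and 0.10 in G9Gl.

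Genes that act after oxidation, in base excision repair and in supplying or regulating Tet enzymes gave 15 tested of 17. In S1S2 2 rose and 7 fell (beside 20.3% and 17.6% of all genes), with a median of -0.19, and in G9Gl 4 rose and 4 fell (beside 19% and 16%), with a median of -0.07. The largest changes in S1S2 were in Gadd45g, a stress-induced gene, which rose by 0.75 ± 0.143 (edgeR adjusted p = 3.36e-06), Idh1, and Neil1, a repair glycosylase, which fell by 0.63 ± 0.168 (adjusted p = 0.000328). Gadd45a rose by 0.71 ± 0.299 in G9Gl (adjusted p = 0.00606) and stood at -0.47 ± 0.337 in S1S2 (adjusted p = 0.0775). Tdg, the glycosylase that removes oxidized cytosines, fell by 0.20 ± 0.040 in S1S2. Apobec1, a cytidine deaminase of RNA, rose from 4.84 ± 0.738 CPM in WT to 10.8 ± 1.16 CPM in G9Gl (log2 1.16 ± 0.158, edgeR adjusted p = 2.57e-05) and stood at 5.06 ± 1.74 CPM in S1S2. Idh1, which makes the 2-oxoglutarate that Tet enzymes consume, fell in both mutants, by 0.64 ± 0.039 and 0.70 ± 0.051 (adjusted p = 9.62e-09 and 2.1e-09). Ogt, a glycosyltransferase that binds Tet proteins, also fell in both, by 0.30 ± 0.055 and 0.28 ± 0.054. Parp1 fell by 0.50 ± 0.036 in G9Gl (adjusted p = 1.4e-08).

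Of 7 genes of methyl donor metabolism 5 were tested, and 2 changed in S1S2 (40%, beside 37.9% of all genes) and 1 in G9Gl (20%, beside 35%). In S1S2 Ahcyl1 rose by 0.20 ± 0.062, and Mat2a, which makes S-adenosylmethionine in these cells, fell by 0.15 ± 0.020. In G9Gl Mtr, the methionine synthase, fell by 0.28 ± 0.035 and the other 4 did not pass the test.

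Dnmt1, Uhrf1 and Hells are transcribed mostly in dividing cells, so S-phase genes were set beside them. All 22 were tested. In S1S2 7 rose and 4 fell (50%, beside 37.9% of all genes changed), with a median of 0.00. In G9Gl 1 rose and 8 fell (40.9%, beside 35%), with a median of -0.06, and none reached a fold change of 2 in either mutant. The most abundant, Rrm1 (ribonucleotide reductase), was 0.09 ± 0.046 in S1S2 and 0.06 ± 0.042 in G9Gl, neither past the test, while Mcm5, a subunit of the replicative helicase, rose by 0.20 ± 0.026 in S1S2 and fell by 0.17 ± 0.039 in G9Gl. The G9Gl values of the list ran from -0.49 (Ccne2) to 0.21 (Ccne1), and 13 of the 22 did not pass the test.

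Several of these differences are given here relative to the median of their chromosome, which moved them by over 1.5 times. In G9Gl chromosomes 1 and 16 had medians of -0.26 and -0.20, and relative to them Parp1 was -0.24, Idh1 -0.435 and Usp7 -0.13 (27.3% of chromosome 16 genes lay below Usp7). Of the 8 S-phase genes that fell in G9Gl, 4 lie on these chromosomes, and relative to their medians Mcm3 was -0.07, Mcm6 -0.01, Mcm4 -0.05 and Chaf1b 0.01. In S1S2 the values relative to the chromosome median were -0.14 for Cdca7, -0.20 for Zbtb24, -0.14 for Zfp57, -0.12 for Setd2, 0.09 for Zbtb33, -0.04 for Tdg, 0.10 for Ahcyl1 and 0.04 for Mcm5. These relative values carry no test.

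Germline genes whose promoters are methylated in somatic cells were near the detection floor. Of 18 genes only Brdt, a testis bromodomain protein, passed the filter, and it was 0.16 in S1S2 and -0.29 in G9Gl on the log2 scale, neither past the test. The summed level of the 18 was 2.25 to 2.90 CPM in WT, 2.80 to 3.10 CPM in S1S2 and 1.89 to 2.67 CPM in G9Gl. Dazl, Mael and Asz1 had 0 counts in all 9 libraries, which allows up to 3 counts or 0.0923 to 0.141 CPM per library. Small counts of some genes, untested and named after their values were seen, did not overlap with WT: Sycp1 had 12, 8 and 6 reads in G9Gl against 0, 3 and 3 in WT, Sycp2 had 0 reads in all G9Gl libraries against 11, 6 and 5 in WT, and Tex101 had 3, 4 and 2 reads in S1S2 against 0 in WT. Taf7l, with 20, 6 and 5 reads in G9Gl against 2, 0 and 6 in WT, overlapped.

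**Figure D5:**
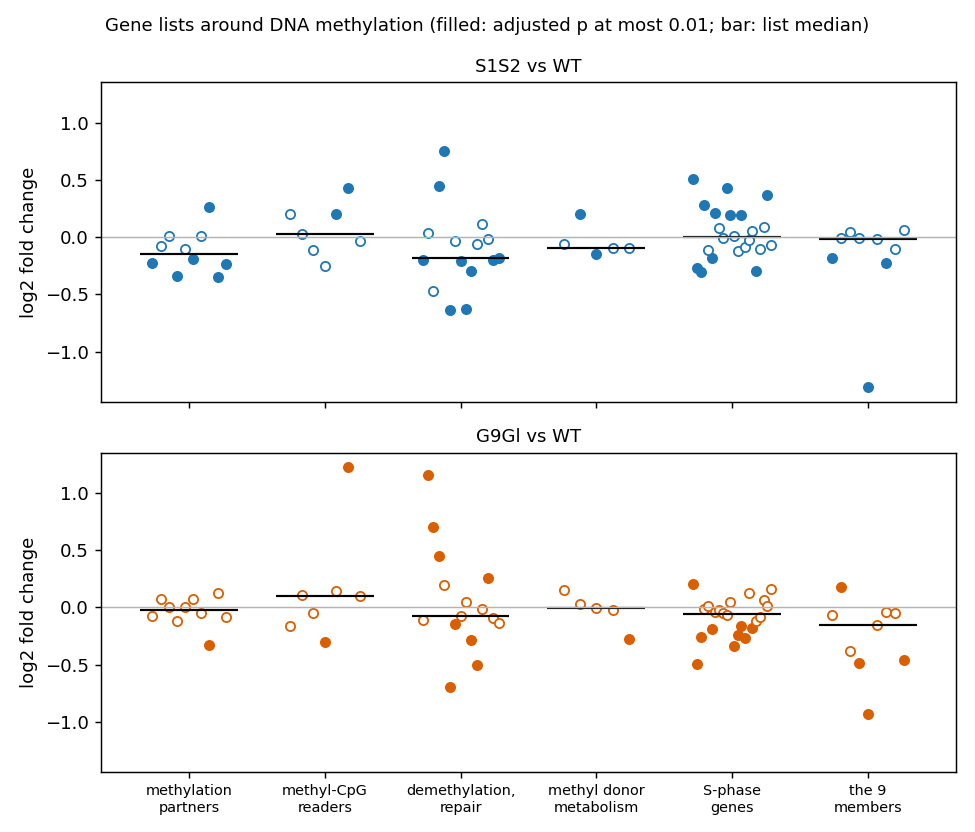
Log2 fold changes against WT of tested genes in 5 lists around DNA methylation and of the 9 genes themselves, in S1S2 (top) and G9Gl (bottom), with filled symbols for an adjusted p of at most 0.01 and a bar at the median of each list. List medians lie between -0.19 and 0.10, Tet1 is the lowest point of all in both mutants, and Zbtb38 and Apobec1 are the highest in G9Gl.

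The genes whose levels followed Tet1 most closely were sought among 10830 tested genes with a mean normalized count over 100. Over the 9 libraries, the Pearson correlation of log2 CPM was 0.990 for Tfg, a protein of vesicle export, 0.989 for Rnd3, a small GTPase, and 0.989 for Lman1, a cargo receptor. These are descriptions over 9 libraries in 3 clusters of replicates, and 120 genes reached 0.95. Their changes were smaller than those of Tet1, at -0.46 and -0.34 for Tfg, -0.56 and -0.47 for Rnd3, and -0.31 and -0.22 for Lman1 in S1S2 and G9Gl.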

How the data were processed

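Total RNA of 9 MEF cultures was sequenced as paired-end reads of 75 bases from TruSeq stranded total RNA libraries. The authors used cutadapt for trimming and STAR (2.5.2b per the submitters' processing notes) for alignment to GRCm38, and deposited raw read counts per gene from TEtranscripts. The annotation release and the strand setting of counting were not given in the sources used here, and repeats were not analysed here. Multiply aligned reads can be shared between near-identical genes. GENCODE M21 gave symbols and positions for 47310 of 47937 genes.

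Counts were analysed in R 4.3.3 with edgeR 4.0.16 (TMM, filterByExpr, glmQLFit and glmQLFTest), all 9 libraries together and 1 coefficient for each genotype. Changed genes had an adjusted p (Benjamini-Hochberg) no higher than 0.01. SE came from log2 CPM of the replicates (prior count 2). The fit was tested on simulated data. The common biological coefficient of variation was 5.36%. Floors cover counting error only, whereas SD and SE give the spread between libraries. No library pair differed by so little as to be a duplicate. Ratios were tested with SciPy 1.17.1. DESeq2 1.42.0, other scalings, filters and thresholds, single-library removal, chromosome shifts and a replicate block were the alternatives.

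The 9 genes and all lists were chosen with earlier results of these data known. All 9 genes are named, and from each pathway list those past both limits in a mutant against WT or, failing that, the 2 most abundant. Other list genes were named after their values were seen, and 2 list genes are not reported here, so the counts of their lists are not of the whole lists. The 3 genes most correlated with Tet1 are named.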

Additional observations from a re-analysis of the deposited data

Results flagged for a closer look

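The following differences from WT were unequal in the 2 mutants, tested as G9Gl against S1S2 with edgeR (log2 scale, adjusted over all genes). Dnmt3a was higher in G9Gl by 0.187 (adjusted p = 0.00394), Tet1 by 0.377 (0.00254) and Tet3 by 0.190 (0.00607). The calls of Dnmt3a and Tet3 were each lost without G9Gl replicate 1, G9Gl replicate 2, S1S2 replicate 1 or S1S2 replicate 2 (adjusted p from 0.0147 to 0.0252 for Dnmt3a and from 0.0197 to 0.0427 for Tet3), and that of Tet1 without G9Gl replicate 3, S1S2 replicate 2 or S1S2 replicate 3 (0.0127 to 0.0144). The call of Tet1 was also lost with chromosome shifts in the fit, beside a median of 0.19 for chromosome 10, which holds it. Uhrf2 was lower in G9Gl, at -0.519 (1.87e-08), as was Hells, at -0.475 (5.24e-08), beside a median of -0.52 for chromosome 19, which holds both. Of the pathway lists, those that differed between the mutants by at least 0.5 were Zbtb38, higher in G9Gl by 0.799 (2.58e-09), Apobec1 by 1.121 (4.31e-05), Gadd45a by 1.173 (0.000111) and Neil1 by 0.680 (0.00013), and Usp7 at -0.588 (1.18e-09) and Gadd45g at -0.552 (6.81e-05), both lower. Both mutants are single clones, and causes were not tested.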

How the results depend on the processing

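With single libraries left out, 2 to 3 of the 9 genes changed in S1S2, 3 to 5 in G9Gl (without Dnmt3a or with Dnmt3b) and 2 to 5 between the mutants. With chromosome shifts in the fit (chosen after seeing the data) 4 changed in S1S2 (Hells, Tet1, Tet3 and Uhrf2, but not Dnmt1), 3 in G9Gl and 3 between the mutants (Dnmt3a, Dnmt3b and Tet3). Between the mutants 6 changed under DESeq2, the filter of 10 counts and no filter, and 7 at an adjusted p of at most 0.05. Counts with a fold change of 2 were 1, 0 and 0 under all alternatives run. Same-numbered libraries did not deviate together (correlations from -0.0686 to 0.124), so the numbers were not taken as pairs. With the replicate block 3, 5 and 6 genes changed in S1S2, in G9Gl and between the mutants, the added gene being Dnmt3b (-0.387 in G9Gl, adjusted p = 0.00918).

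With single libraries left out, signs turned for differences near 0 that passed no test: Dnmt3a in S1S2 ranged from -0.038 to 0.021, Dnmt3b in S1S2 from -0.050 to 0.105, Hells in S1S2 from -0.038 to 0.018, Tet2 in S1S2 from -0.092 to 0.067, and Tet3 in G9Gl from -0.075 to 0.008. Removing chromosome medians turned Uhrf2 in S1S2 to -0.276, and Uhrf1 and Hells between the mutants to -0.069 and 0.042. Of these, Hells had been at -0.475 and had passed the test. Entering them in the fit gave -0.273, -0.079 and 0.030. The shift itself makes this difference, since the fold change alone is moved and, without a refit, the p is not. Removing medians left the p of Hells between the mutants at 5.24e-08, and the refit gave 0.601. Depth limits Dnmt3b and Tet1 most, with counting error of up to 8.67% and 8.06% per library.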
